A study of Rattus norvegicus with 10 samples.

Results

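Capg and the regulators of actin filament ends were examined in splenic M2 macrophages of rats. The set was given by name as 9 genes, of which 8 had a row in the deposited table of 9003 genes. These were Capg, Gsn, Flii, Capza1, Capza2, Capzb, Twf2 and Cfl1. Vil1, which encodes the actin-severing protein villin of epithelial microvilli, had no row and was not analysed here. The list was chosen with values of these same libraries known, and which values were used is not stated. The levels of its members in control against nephritic groups are thus given as a description, and nothing is read from tests of them.

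RNA-seq was performed on M2 macrophages sorted by flow cytometry from the spleen of WKY /Ncrj rats, in 10 libraries of 4 groups. The control group (n = 2) came from rats in a physiological condition, and the GN group (n = 2) from rats with glomerulonephritis that received no human adipose-derived stem cells (ASCs). Glomerulonephritis was induced with TF78, a mouse monoclonal antibody to the rat glomerular basement membrane. The EV+ (n = 3) and EV- (n = 3) groups came from nephritic rats given ASCs labelled with the membrane dye DiD, and were the macrophages that carried the dye and those that did not, so the EV- cells also came from treated animals. DiD marks membrane taken up from the donor cells, and EV stands for extracellular vesicle.

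Actin filaments grow mainly at their barbed end and lose subunits mainly at the pointed end. Capping proteins sit on the barbed end and stop growth, gelsolin family proteins sever filaments or cap them in response to calcium, and cofilin severs older filaments and speeds subunit loss. Macrophages rely on this turnover for ruffling, migration and phagocytosis, and CapG is an abundant barbed-end capper of these cells that, unlike gelsolin, does not sever.

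Levels are given as read counts scaled to library size with TMM factors, in the unit CPM, and fold changes as differences of log2(CPM + 1) from limma fitted over the 4 groups. These values allow a gene to be compared between libraries, but not between genes, because they were not divided by transcript length. Where the libraries of a group all lay above or below those of another, the share of all genes that did so is not given. The libraries held 19270515 to 26617093 reads, so 3 reads corresponded to 0.113 to 0.153 CPM, and every one of the 8 genes had at least 1229 reads in each library. The macrophage genes Csf1r (5800 to 8155 CPM), Cd68 (1163 to 1466 CPM) and Adgre1 (1025 to 1491 CPM) were high in all libraries. The M2 markers Cd163 and Mrc1 were at most 1.81 CPM and were at 0 in 3 and 2 libraries. Other macrophage markers were low too: C1qa, C1qb and C1qc were at most 8.59, 11.2 and 8.96 CPM and Msr1 at most 2.14 CPM. Mertk and Marco had no row. EV- replicate 1 stood apart in a list of 16 NK and T cell markers, of which 14 had a row: their summed level was 986 CPM there and 280 to 430 CPM in the other libraries. Its perforin gene Prf1 was at 335 CPM, against at most 51.4 CPM elsewhere.

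Of the 9 genes, 7 had an entry among 33469 RefSeq promoters of build GRCr8. These included Vil1, which had no measured level, but not Capg or Twf2. The promoter of Gsn is printed because the level of Gsn, like that of Capg, was higher in every nephritic library than in control. It spans 250 bases before to 50 bases after the start, at chr3:39008682-39008981 on the plus strand of GRCr8, a build other than the rn6 used for the reads, and capitals mark each GC box (GGGCGG, either strand).
Gsn promoter: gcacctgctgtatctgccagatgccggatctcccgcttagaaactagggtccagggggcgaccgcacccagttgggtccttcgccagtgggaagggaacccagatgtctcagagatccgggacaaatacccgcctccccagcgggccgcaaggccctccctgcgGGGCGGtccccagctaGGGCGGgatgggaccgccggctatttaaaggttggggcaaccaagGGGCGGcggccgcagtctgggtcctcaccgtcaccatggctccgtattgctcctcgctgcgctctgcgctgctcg
The sequence holds 3 GC boxes. A GC box lies in 7 of the 7 listed promoters and in 33.1% of all promoters. All promoters include those of genes without a row, and the share among measured genes is not given. A CCAAT box (CCAAT) lies in those of Capzb and Cfl1 and in 37.5% of all promoters, whereas TATAAA (14.2%), the AP-1 motif TGANTCA (7.33%), the PU.1 motif GAGGAAGT (2.42%) and the CArG box (1.64%) lie in none of the 7. Both strands were searched, motifs could overlap, and a match is a description of letters only. Reads summed over a gene do not show which start was used.

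Capg, which encodes the calcium-dependent barbed-end capping protein CapG, was low in control and several times higher in each nephritic group. The level was 93.1 and 81.7 CPM in the 2 control libraries and 391 and 410 CPM in the 2 GN libraries. It was 405, 334 and 432 CPM in the 3 EV+ libraries and 334, 300.4 and 386 CPM in the 3 EV- libraries. Every nephritic library lay above both control libraries, and the lowest of them, EV- replicate 2, was still well above the higher control. The group means were 87.4 ± 8.12 CPM in control (SD, n = 2), 400.4 ± 13.6 CPM in GN (SD, n = 2), 390.3 ± 50.4 CPM in EV+ (SD, n = 3) and 340.3 ± 43.3 CPM in EV- (SD, n = 3). The log2 fold change against control was 2.19 in GN (SE 0.13, 95% interval 1.91 to 2.46), 2.14 in EV+ (SE 0.12, 1.89 to 2.39) and 1.94 in EV- (SE 0.12, 1.69 to 2.20). Ranked by fold change from the highest down among 9003 genes, Capg was 2nd, 1st and 10th in these 3 comparisons. Because the list may have been built on this pattern, these values are a description and no p is given for them. In bulk samples such as these, a larger share of cells with the transcript and more transcript per cell cannot be told apart.

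**Figure D1:**
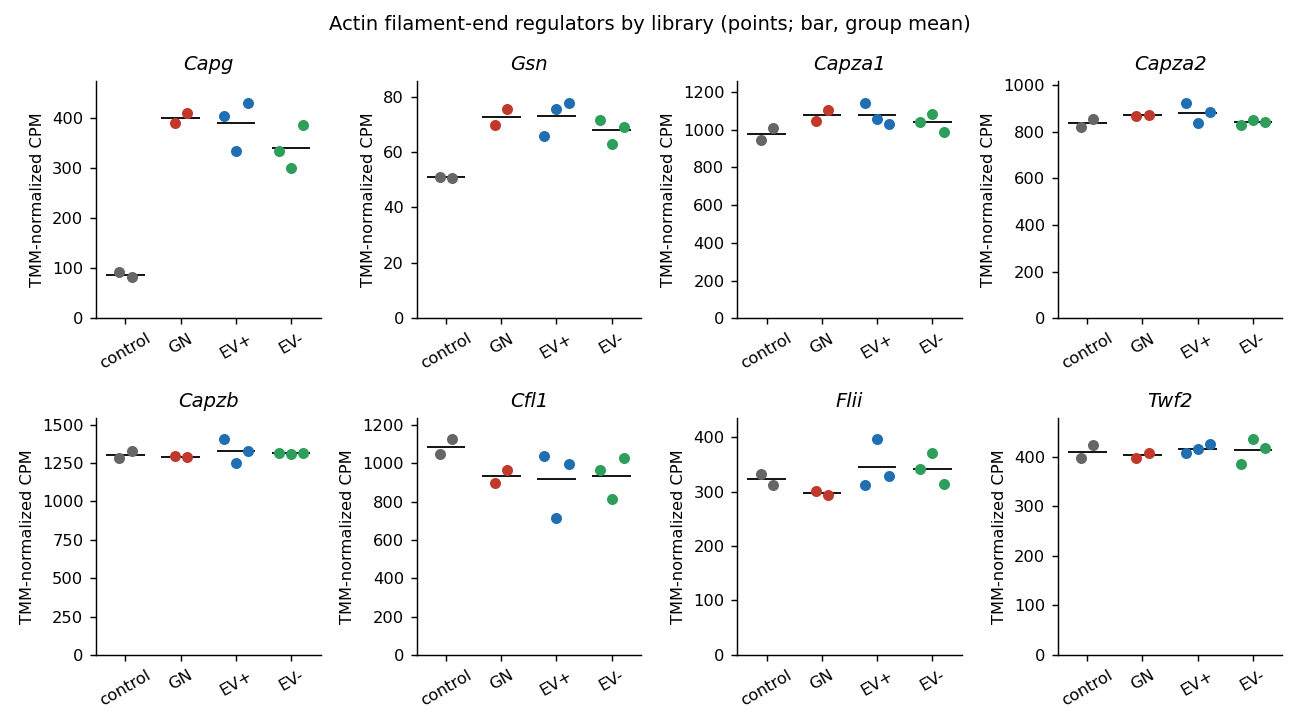
Level of each of the 8 listed genes in TMM-normalized CPM (vertical axis, starting at 0) in the control (n = 2), GN (n = 2), EV+ (n = 3) and EV- (n = 3) groups; each point is 1 library and the bar is the group mean. Capg lay at 81.7 to 93.1 CPM in control and at 300.4 to 432 CPM in the other groups, and Gsn at 50.7 to 51.0 CPM against 62.7 to 77.8 CPM, whereas the control range of Capzb lay within that of the other groups.

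No difference in Capg among the nephritic groups passed the test. EV+ was 0.04 below GN on the log2 scale (log2 fold change -0.04, 95% interval -0.30 to 0.21, limma adjusted p = 0.961), and the groups overlapped. All 3 EV- libraries were below both GN libraries, with a log2 fold change of -0.24 (95% interval -0.49 to 0.01) that did not pass the test (limma adjusted p = 0.657). EV+ was higher than EV- in 3 of 3 pairs with the same replicate number, by 0.28, 0.15 and 0.16 on the log2 scale. The groups overlapped, and in the fit by group, which leaves out these pairs, the log2 fold change of 0.20 (95% interval -0.03 to 0.42) did not pass the test (limma adjusted p = 0.9997). With replicate number as a block in all 4 groups it did not pass either (limma adjusted p = 0.895). No fit paired the EV+ and EV- libraries alone. Without EV- replicate 1, the library with raised NK and T cell markers, the log2 fold changes of EV- against GN and EV+ against EV- were -0.23 and 0.19. Other libraries moved these values more. For EV- against GN the log2 fold change was -0.16 without EV- replicate 2 and -0.34 without EV- replicate 3, and that of EV+ against EV- was 0.11 without EV- replicate 2, 0.29 without EV- replicate 3, 0.30 without EV+ replicate 2 and 0.12 without EV+ replicate 3, and none passed the test. The intervals thus leave room for a difference of EV- from GN of up to 0.49 downward.

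Gsn encodes gelsolin, which severs filaments and then stays on the new barbed end as a cap. The control libraries gave 51.0 and 50.7 CPM, and the GN libraries 69.7 and 75.4 CPM. It was 65.7, 75.4 and 77.8 CPM in EV+ and 71.6, 62.7 and 69.1 CPM in EV-. Here too every nephritic library lay above both controls, although by a much smaller step than for Capg. The log2 fold change against control was 0.50 in GN (SE 0.11, 95% interval 0.26 to 0.74), 0.51 in EV+ (SE 0.10, 0.29 to 0.73) and 0.41 in EV- (SE 0.10, 0.19 to 0.62). Gsn differed among the nephritic groups by a log2 fold change of 0.01 for EV+ against GN (limma adjusted p = 0.998), -0.10 for EV- against GN (limma adjusted p = 0.888) and 0.10 for EV+ against EV- (limma adjusted p = 0.9997), with overlapping groups in each. The ratio of Capg to Gsn in CPM was 1.61 and 1.83 in the control libraries and 4.43 to 6.16 in the 8 others, so within every library of a nephritic group the 2 genes stood further apart than in control.

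Flii encodes flightless-1, a gelsolin family protein that also binds signalling and transcription partners. The control libraries gave 332 and 313 CPM, and the GN libraries 302 and 294 CPM. It was 311, 396 and 329 CPM in EV+ and 342, 370 and 315 CPM in EV-. All EV+ and EV- libraries lay above both GN libraries, with log2 fold changes of 0.21 (95% interval -0.01 to 0.42, limma adjusted p = 0.719) and 0.20 (95% interval -0.02 to 0.41, limma adjusted p = 0.672), neither of which passed the test. The highest values were those of replicate 2 of EV+ and replicate 2 of EV-. Without EV+ replicate 2 the log2 fold change of EV+ against GN was 0.10.

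CapZ, the heterodimer that caps most barbed ends in nonmuscle cells, is encoded by Capza1 and Capza2 for its alpha subunits and Capzb for its beta subunit. Capzb ranged from 1253 to 1404 CPM over the 10 libraries, Capza1 from 947 to 1143 CPM and Capza2 from 818 to 924 CPM. The highest library was 1.12 times the lowest for Capzb, 1.21 times for Capza1 and 1.13 times for Capza2, against 5.29 times for Capg. The log2 fold change of GN against control was 0.14 for Capza1 (95% interval -0.03 to 0.31), 0.06 for Capza2 (95% interval -0.10 to 0.21) and -0.01 for Capzb (95% interval -0.17 to 0.14). Between EV+ and EV- it was 0.05 for Capza1 (95% interval -0.09 to 0.19), 0.07 for Capza2 (95% interval -0.06 to 0.20) and 0.01 for Capzb (95% interval -0.11 to 0.14), and none passed the test (limma adjusted p = 0.9997 for each). These intervals reach at most 0.31 from 0 on the log2 scale. The ratio of Capza1 to Capza2 in CPM stayed between 1.16 and 1.28. The ratio of Capg to Capzb was 0.0726 and 0.0615 in control and 0.230 to 0.325 in the nephritic libraries. These ratios compare a change in 1 gene with a change in another and not the amounts of their proteins.

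Twf2 encodes twinfilin-2, which binds actin monomers and capping protein. It ranged from 386 to 435 CPM, and its log2 fold change was -0.02 for GN against control (95% interval -0.19 to 0.14), 0.05 for EV+ against GN (limma adjusted p = 0.940) and 0.03 for EV- against GN (limma adjusted p = 0.962). Both ends of that range were EV- libraries, so no group stood apart.

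Cfl1 encodes cofilin-1, the filament-severing protein of nonmuscle cells. The control libraries gave 1049 and 1125 CPM, and the GN libraries 897 and 967 CPM. It was 1037, 713 and 997 CPM in EV+ and 966, 813 and 1026 CPM in EV-. Each nephritic library lay below both controls, but the spread was wide, with a coefficient of variation of 19.3% in EV+. The log2 fold change was -0.22 for GN against control (95% interval -0.54 to 0.10), -0.27 for EV+ against control (95% interval -0.56 to 0.03) and -0.22 for EV- against control (95% interval -0.52 to 0.07). Between EV+ and EV- it was -0.04 (95% interval -0.30 to 0.22, limma adjusted p = 0.9997). The lowest values were those of EV+ replicate 2 and EV- replicate 2, the same libraries in which Flii was highest. In these libraries the summed level of 80 ribosomal protein genes was also lowest, at 12076 and 13593 CPM against 14933 to 18559 CPM in the others, and the part of this in the Cfl1 and Flii values was not tested. RefSeq names 11 pseudogenes for Cfl1 and 1 each for Capg, Capza1 and Twf2, none of which had a row in the table. Reads that fit both a gene and a copy may thus be counted differently for these genes than for genes with no such copies.

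**Figure D2:**
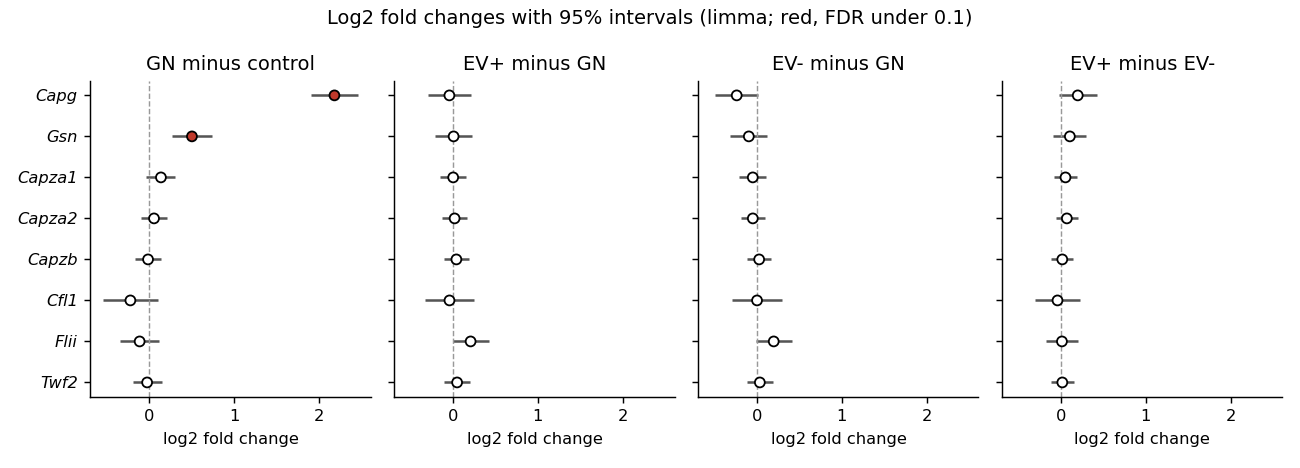
Log2 fold change of log2(CPM + 1) for the 8 listed genes (rows) in GN minus control, EV+ minus GN, EV- minus GN and EV+ minus EV- (panels). Points are limma estimates, lines are 95% intervals and red marks an FDR under 0.1 over 9003 genes. In GN minus control the red is a description because that contrast may have chosen the list. Capg at 2.19 and Gsn at 0.50 are the 2 red points, both in GN minus control, and none of the 8 genes passed in the other 3 panels.

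The contrasts with control share the control libraries and may have chosen the list, so nothing is read from the number of its members called in them. At an FDR under 0.1, limma called 2 of the 8 genes higher in GN than in control, Capg and Gsn, where 0.933% of all genes were called higher. The same 2 genes were called higher in EV+ than in control (1.82% of all genes) and in EV- than in control (1.29% of all genes). The test among all 4 groups, which includes the control libraries, called the same 2 genes (2.57% of all genes), and nothing is read from that either. The call of Gsn was lost in GN against control when any 1 of the 4 libraries of that comparison was left out, and in EV+ against control without either control library. In EV- against control it was lost without either control library, without EV- replicate 1 or 3, and with replicate number as a block (limma adjusted p = 0.119). The median log2 fold change of the 8 genes was 0.02 in GN against control, and that of all genes was -0.00014.

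None of the 8 genes passed in EV+ against GN, EV- against GN or EV+ against EV-, where limma called 0.122%, 0.378% and 0.0222% of all genes in either direction, and 0.0666%, 0.0555% and 0.0222% of them higher in the first group. With replicate number as a block, the calls over all genes went from 11 to 30, from 34 to 53 and from 2 to 5, and still included 0 of the 8 genes. At an unadjusted p under 0.05, 0 of the 8 genes passed in each, beside 642, 707 and 411 of all genes. The edgeR quasi-likelihood test on recovered reads, edgeR's likelihood-ratio test and DESeq2 also called 0 of 8 in each. The median log2 fold change of the 8 genes was 0.01, -0.03 and 0.03 in these comparisons, beside -0.01, 0.00061 and -0.01 over all genes.

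**Figure D3:**
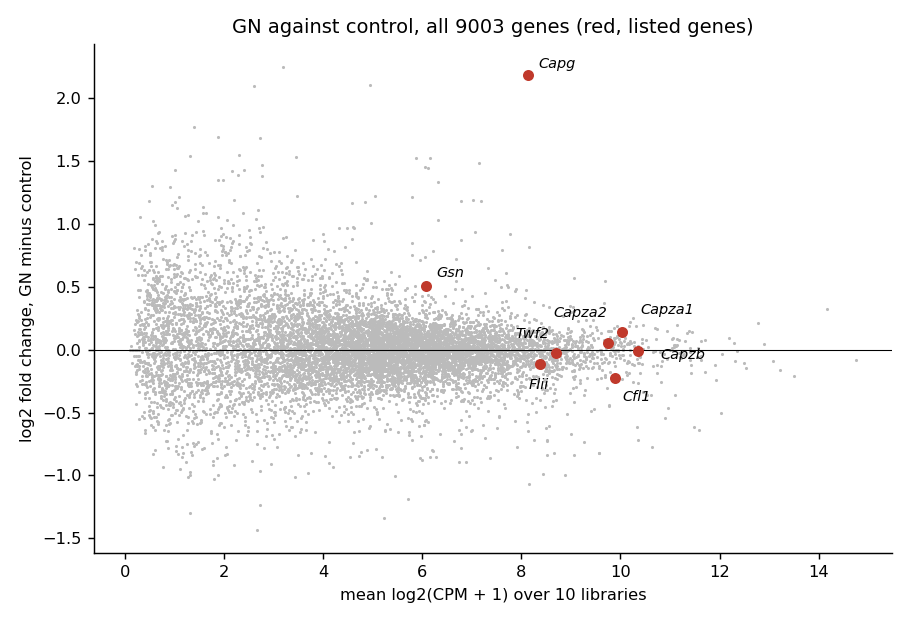
Log2 fold change of GN minus control (vertical axis) against the mean log2(CPM + 1) over 10 libraries (horizontal axis) for 9003 genes in grey, with the 8 listed genes in red. Capg, at 2.19, ranks 2nd of all genes by fold change, Gsn is at 0.50, and the other 6 lie between -0.22 and 0.14.

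Several marker lists also differed in summed level between control and the nephritic libraries. For those given here the factor was smaller than for Capg. Of 16 macrophage markers, 14 had a row, and their summed level, most of it from Lyz2 and Csf1r, was 25474 to 25876 CPM in control and 29441 to 31731 CPM in the nephritic libraries. Within the list, Itgam, the integrin CD11b, gave 388 and 418 CPM in the control libraries and 478 to 641 CPM elsewhere, whereas Cd68, at 1316 and 1373 CPM in control, overlapped them. Aif1 gave 590 and 687 CPM in the control libraries and 460 to 628 CPM elsewhere, and Fcgr1a 349 and 366 CPM against 286 to 364 CPM, so the members of this list did not move one way. Of 10 neutrophil markers, 7 had a row, and their summed level, most of it from Csf3r, was 550 to 555 CPM in control and 609 to 744 CPM in the others, while S100a8 was at most 3.39 CPM in every library. Of the 16 NK and T cell markers, the 14 with a row summed to 280 and 285 CPM in control and 342 to 986 CPM in the nephritic libraries, all of which lay above both controls. The part of these shifts in the Capg and Gsn values was not tested.

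The wider actin machinery was examined with 9 lists of actin regulators, grouped by role, of which 83 of 120 genes had a row. Besides the 8 genes above, 75 of 111 were measured. Among these 75, limma called 1 gene up and 1 down in GN against control, 3 up and 1 down in EV+ against control, 2 up and 1 down in EV- against control, and none between nephritic groups. All genes were called in either direction at 1.75%, 3.63% and 2.84% in the 3 control comparisons. The median log2 fold change of the 75 genes was -0.03, -0.06 and -0.05 in these comparisons, beside -0.00014, -0.00013 and 0.01 over all genes. Tpm2, which encodes a tropomyosin, passed among the 4 groups (limma adjusted p = 0.0993) but in no pairwise comparison, and was at 9.98 CPM in GN replicate 1 and at 0 to 2.45 CPM in the other libraries.

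The Arp2/3 complex, which nucleates branched filaments, had all 9 of its listed genes measured and none called, with log2 fold changes between -0.13 and 0.05 in GN against control. None of the 20 measured genes of the ADF and cofilin cycle was called, nor either of the 2 measured pointed-end capping genes. Of 10 measured genes of barbed-end capping and its regulators, which include the CapZ genes, 0 were called. The actins themselves did not pass the test: Actb, which encodes beta-actin, had a mean of 28742 CPM in control and 27196 CPM in GN (log2 fold change -0.08, limma adjusted p = 0.886), and Actg1, which encodes gamma-actin, 1254 and 1090 CPM (log2 fold change -0.20, limma adjusted p = 0.411).

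Evl encodes an Ena/VASP protein, which holds barbed ends open against capping and adds actin to them. The control libraries gave 203 and 195 CPM and the GN libraries 156 and 151 CPM, and it was at 141 to 165 CPM in the EV+ and EV- libraries. It fell in GN (log2 fold change -0.37, limma adjusted p = 0.0723), in EV+ (-0.42, limma adjusted p = 0.0119) and in EV- (-0.36, limma adjusted p = 0.0338) against control, and all 8 nephritic libraries lay below both controls. Evl was the 1 called gene of 6 measured in the list of barbed-end elongation factors. The call in GN was lost without any 1 of the control or GN libraries or EV+ replicate 3, that in EV+ without control replicate 1, and that in EV- without either control library or EV- replicate 1. Without limma's intensity trend the calls in GN and EV- were also lost (adjusted p = 0.21 and 0.129).

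Tagln2, which encodes the actin-bundling protein transgelin-2, rose against control. It was at 78.3 and 76.5 CPM in control, 142 and 157 CPM in GN, 174, 108 and 168 CPM in EV+ and 195, 117 and 184 CPM in EV-. The log2 fold change was 0.94 in GN (limma adjusted p = 0.0747), 0.91 in EV+ (limma adjusted p = 0.0338) and 1.05 in EV- (limma adjusted p = 0.0192), and no nephritic library reached down to the controls. Replicate 2 was the lowest library in both EV groups, and each of the 3 calls was lost without either control library. The call in GN was also lost without either GN library or EV+ replicate 3, and that in EV+ without EV+ replicate 3. Without limma's intensity trend all 3 calls were lost (adjusted p = 0.274, 0.155 and 0.129).

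Of the Arp2/3 activators, Cyfip1, a subunit of the WAVE complex, rose in EV+ against control (log2 fold change 0.49, limma adjusted p = 0.0140), a call lost without control replicate 2 and without limma's intensity trend (adjusted p = 0.102). It was at 282, 349 and 316 CPM in EV+ and 260, 280 and 246 CPM in EV-, so that every EV+ library lay above every EV- library, but the log2 fold change of 0.26 between them did not pass the test (limma adjusted p = 0.934). The crosslinker filamin A, encoded by Flna, rose in EV+ against control by 0.41 on the log2 scale (limma adjusted p = 0.0942). Alpha-actinin-4, encoded by Actn4, rose in EV- against control by 0.31 on the log2 scale (limma adjusted p = 0.0934). The call of Flna was lost without any 1 of 6 libraries, and that of Actn4 without any 1 of 8 libraries. Both were lost with edgeR's quasi-likelihood test, and without limma's intensity trend (adjusted p = 0.267 for Flna and 0.265 for Actn4). With the compared groups alone both were lost too (limma adjusted p = 0.216 and 0.106).

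**Figure D4:**
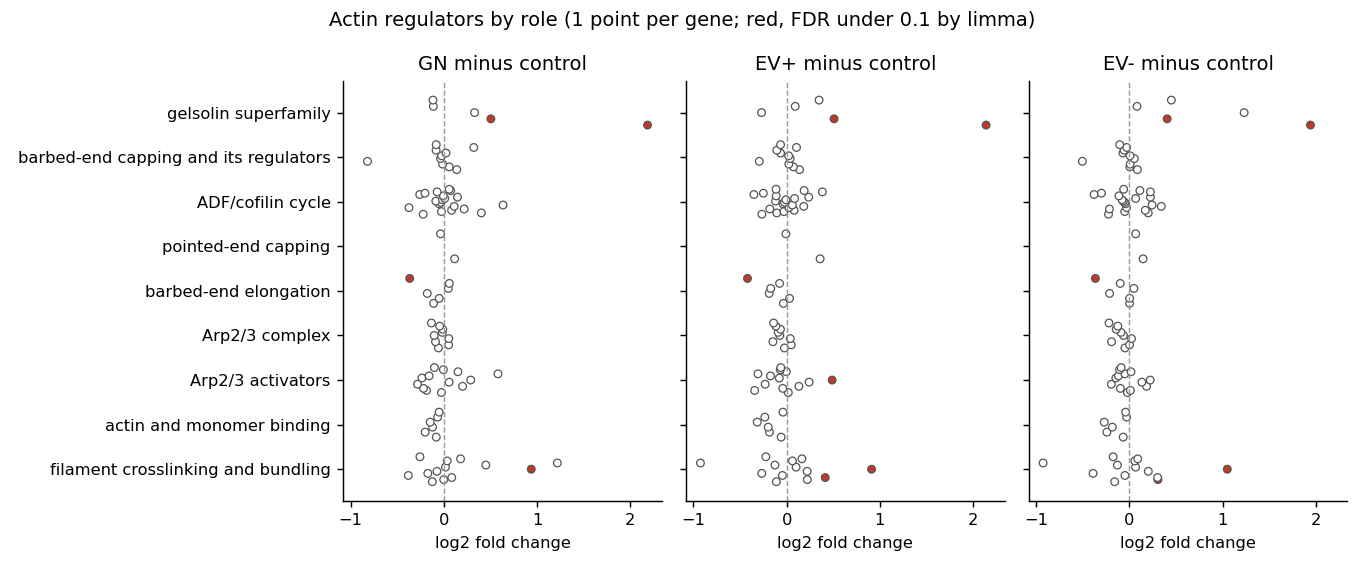
Log2 fold change of GN, EV+ and EV- minus control (panels) for the measured genes of 9 lists of actin regulators (rows), 1 point per gene, with red points for an FDR under 0.1 by limma. The 2 red points of the gelsolin superfamily are Capg and Gsn, Evl is the red point below 0 among the elongation factors, and the Arp2/3 complex lies between -0.22 and 0.05 in all panels.

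Among the other gelsolin family genes, Svil, which encodes the membrane-linked protein supervillin, was at 184 and 157 CPM in control, 160 and 153 CPM in GN and 177 to 287 CPM in the EV+ and EV- libraries, and was highest in EV+ replicate 2 and EV- replicate 2. Scin, which encodes the severing protein scinderin, was at 9.14 CPM in EV- replicate 1, the library with raised NK and T cell markers, and at 0 to 1.32 CPM in the others. Neither was called in any comparison.

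The genes whose levels followed Capg most closely were sought over 10 libraries, among 7192 genes with a mean of at least 5 CPM. The 5 with the highest Pearson correlation of log2(CPM + 1) were Ptgs1 (0.989), which encodes cyclooxygenase-1, Ncf1 (0.984), which encodes the p47phox subunit of the phagocyte NADPH oxidase, Ifi30 (0.978), a lysosomal thiol reductase, Cst7 (0.970), which encodes cystatin F, and Vim (0.968), which encodes vimentin. The points share the step between 2 control and 8 nephritic libraries, and over the 8 nephritic libraries alone the correlations were 0.862, 0.506, 0.938, 0.946 and 0.720 in the same order. The choice of genes depended on the measure: by Spearman's rho the first 5 shared 2 of these genes, and Ncf1 (0.685) ranked 264th and Vim (0.758) 138th. Ptgs1 was at 29.5 ± 1.64 CPM in control (SD, n = 2), 82.5 ± 5.95 CPM in GN (SD, n = 2), 84.0 ± 16.2 CPM in EV+ (SD, n = 3) and 74.5 ± 6.85 CPM in EV- (SD, n = 3). Cst7 was at 60.1 ± 10.8 CPM in control (SD, n = 2), 137 ± 11.5 CPM in GN (SD, n = 2), 133 ± 18.8 CPM in EV+ (SD, n = 3) and 117 ± 18.2 CPM in EV- (SD, n = 3). Gsn had a correlation of 0.926 with Capg over all libraries and 0.461 over the nephritic ones. Cfl1 had -0.41 and 0.684, and Flii -0.01 and -0.77, so that within the nephritic libraries Capg was lower where Flii was higher. EV- replicate 2 and EV+ replicate 2, which are among the lowest for Capg there, are the highest for Flii.

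**Figure D5:**
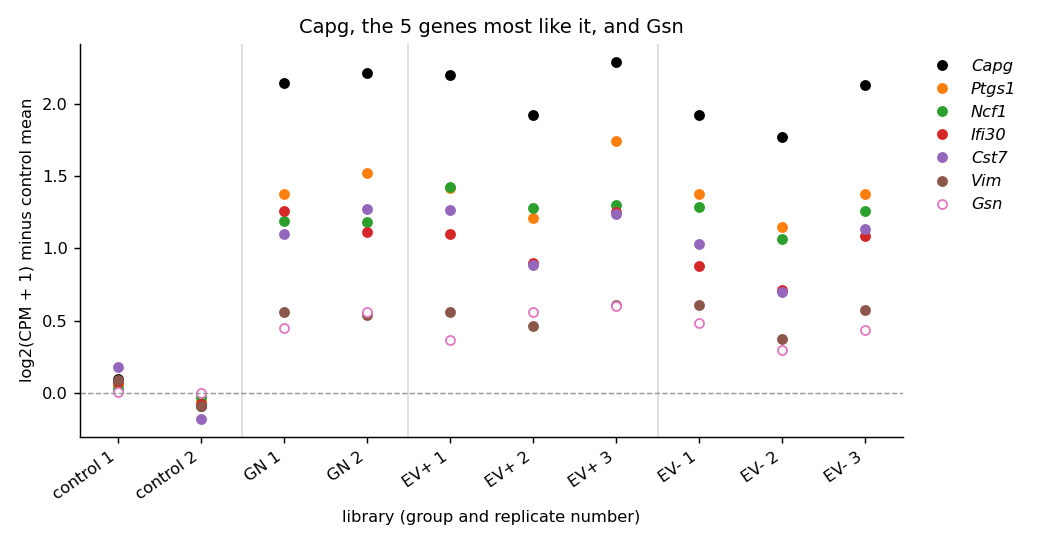
Difference of log2(CPM + 1) from the mean of the 2 control libraries (vertical axis) in each of 10 libraries (horizontal axis) for Capg, the 5 genes most like it, and Gsn. All 7 genes lay above 0 in the 8 nephritic libraries, and Capg was the highest in each of them.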

How the data were processed

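Total RNA of sorted splenic M2 macrophages was extracted with the RNeasy Plus Micro Kit, amplified with SMART-Seq v4, made into libraries with Nextera XT and sequenced as paired ends. Per the submitters' processing notes and the methods, the authors aligned reads to rn6 with STAR 2.5.3, counted reads on RefSeq genes with HTSeq 0.6.0, removed genes whose maximum was under 1 CPM and applied TMM normalization in edgeR. The deposited table thus holds a normalized signal (TMM-scaled CPM), and genes under that filter could not be tested. Counting was not stated to use strand, and 18 gene symbols had been turned into dates.

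Dividing each library's values by its smallest step returned whole reads (tolerance 0.05) for 100% of them, and TMM-CPM computed anew from those reads matched the deposited signal to 4e-05. Replicates differed by a chi-square of 13.4 to 45.4 per degree of freedom, and none was treated as a duplicate. The replicates were described as biological, but the labels do not name animals. Floors cover counting error only.

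Log2(CPM + 1) of 9003 genes was fitted over 4 groups with limma 3.58.1 (intensity trend, R 4.3.3), with Benjamini-Hochberg adjustment over all genes and a call at an FDR under 0.1. This normalized scale understates changes of low genes. The alternatives were edgeR 4.0.16 (quasi-likelihood and likelihood-ratio) and DESeq2 1.42.0 on recovered reads, RLE scaling, a pseudocount of 0.1, 2 filters on low values, no trend, an FDR of 0.05, a replicate block, the compared groups alone, and leaving out each library. The quasi-likelihood test called 147, 9, 36, 2, 301 and 234 genes in GN against control, EV+ against GN, EV- against GN, EV+ against EV-, EV+ against control and EV- against control, where limma called 158, 11, 34, 2, 327 and 256.

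Same-numbered EV+ and EV- libraries deviated from their group means together (correlations over genes of 0.203, 0.295 and 0.122), so these numbers were taken to pair them. For control and GN the correlation was 0.0878. Same-numbered control and EV+ libraries gave -0.106 and -0.141, and control and EV- libraries -0.0125 and -0.0413. GN gave 0.0510 and 0.0204 with EV+, and 0.0352 and 0.0522 with EV-. The replicate block still used the numbers alike in all 4 groups, and these values gave no ground for pairing control with the EV libraries. The main fit used no pairs.

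The members, the actin and marker lists and the rule for named genes were chosen with earlier results of these data known. Named were all members in the table, other listed actin genes called in any of 6 pairwise comparisons (up to 6 per comparison, by size of change), Actb and Actg1, and the 5 genes most correlated with Capg. Svil, Scin, Aif1, Fcgr1a, Itgam, Tpm2, Cd8a, Cd8b, Lck, Adgre1, C1qa, C1qb, C1qc and Msr1 were named after their values were seen. Promoter sequences came from RefSeq (GRCr8), and Capg and Twf2 had no entry. Another list of actin regulators is not reported here.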

Additional observations from a re-analysis of the deposited data

How the results depend on the processing

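The contrasts with control may have chosen the list, so calls of its members there are a description and their stability supports nothing. Over the alternatives, the log2 fold change of Capg was 2.09 to 2.28, 2.05 to 2.25 and 1.85 to 2.04 in GN, EV+ and EV- against control. The number of listed genes called fell from 2 to 1, by loss of Gsn, without the intensity trend among 4 groups, in GN against control and in EV- against control, at an FDR of 0.05 among 4 groups and in EV- against control, and in EV- against control with the replicate block or with the compared groups alone. With 1 library left out it was 1 to 2 among 4 groups and in each control comparison, and 0 to 0 in EV+ against GN, EV- against GN and EV+ against EV-. Over all genes, counts of calls ranged over the alternatives from 34 to 294 in GN against control, 0 to 43 in EV+ against GN, 6 to 126 in EV- against GN, 0 to 57 in EV+ against EV-, 114 to 540 in EV+ against control, 94 to 474 in EV- against control and 93 to 616 among 4 groups. The leave-one-out fits used fewer libraries and the FDR of 0.05 is a stricter threshold, but the cause of these ranges was not tested.

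The replicate block turned the log2 fold change of Gsn in EV+ against GN to -0.026 and that of Twf2 in EV- against control to -0.0049, and changed no other direction of a listed gene and, apart from the call of Gsn in EV- against control, no call of one. Cfl1 in EV- against GN was 0.0047 by either edgeR test and 0.0045 by DESeq2. The other changes of direction came from leaving out 1 library. These log2 fold changes ranged as follows. In EV+ against GN, Capg ranged from -0.12 to 0.063, Gsn from -0.051 to 0.078, Capza1 from -0.044 to 0.038, Capza2 from -0.018 to 0.055, Capzb from -0.0032 to 0.079 and Cfl1 from -0.14 to 0.13. In EV- against GN, Cfl1 ranged from -0.072 to 0.096 and Twf2 from -0.0070 to 0.081. In EV+ against EV-, Capzb ranged from -0.027 to 0.055, Cfl1 from -0.14 to 0.13, Flii from -0.092 to 0.081 and Twf2 from -0.034 to 0.053. In GN against control, Capzb ranged from -0.038 to 0.010, Twf2 from -0.070 to 0.020, Actn4 from -0.061 to 0.058 and Flna from -0.096 to 0.26. In EV+ against control, Capzb ranged from -0.017 to 0.065, Flii from -0.0090 to 0.16, Twf2 from -0.023 to 0.067 and Actb from -0.13 to 0.060. In EV- against control, Capza2 ranged from -0.027 to 0.038, Capzb from -0.014 to 0.034, Twf2 from -0.038 to 0.056 and Actb from -0.11 to 0.0010. Of 1008 alternative values of the listed genes, 956 kept their direction and their side of the threshold, 15 lost a call and 37 changed direction. For the other named actin genes, 384 of 441 kept both.

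Groups had 2 or 3 libraries, with 6 residual degrees of freedom. Differences of about 0.2 on the log2 scale in Capg and Flii among the nephritic groups could not be told from 0, because their 95% intervals included it. Genes under 1 CPM throughout, transcript isoforms and protein levels lie outside these data.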
